A study of Mus musculus with 12 samples.

Results

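The glycolytic enzyme isoforms described here are 10 genes that encode alternative forms of 5 enzymes of glycolysis: the hexokinases Hk1 and Hk2, the phosphofructokinase subunits Pfkl, Pfkm and Pfkp, the aldolases Aldoa and Aldoc, the phosphoglycerate mutases Pgam1 and Pgam2, and the enolase Eno3. They were taken as every probe set that the platform annotation assigns to these symbols, which gave 17 probe sets for 10 of the 12393 genes with a probe set of their own on the array. A further probe set (1436822_x_at) is annotated to Hk1 together with other genes, 6 symbols in all, and is given only where Hk1 is described. RNA came from mouse embryonic fibroblasts (MEFs) of the C57BL/6 strain, in 4 groups of 3 arrays that the labels call biological replicates. MEFs of TF group 1 carried lentiviruses for 3 transcription factors (GATA4, TBX5 and MEF2C), those of TF group 2 for 5 (with Mesp1 and SMARCD3 added), and those of TF group 3 for 7 (with MYOCD and SRF added to these). The negative control carried M2rtTA alone. Every group, the negative control included, carried M2rtTA, the transactivator through which doxycycline turns on the delivered genes, and all received doxycycline for 7 days in a medium with extra serum and valproic acid, an inhibitor of histone deacetylases. Per the study's methods, RNA was taken from the total population of transduced cells without sorting, and most delivered sequences were human. Nothing states that replicates came from separate isolations of MEFs, so p-values measure the spread between these arrays. In such bulk RNA, fewer cells of a type and less RNA per cell cannot be told apart.

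Glycolysis breaks glucose down to pyruvate in the cytosol. Several of its steps are catalysed by families of isoenzymes, and each tissue is known for its own set: skeletal muscle uses Hk2, Pfkm, Pgam2 and Eno3, brain uses Hk1, Aldoc and Pgam1, platelets use Pfkp and liver uses Pfkl. The heart shares several of these forms with skeletal muscle, Hk2, Pfkm and Eno3 among them, and takes much of its energy from fatty acids. Since the delivered factors include regulators of muscle genes, the comparisons ask which isoform of each step moved with which set of factors.

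The deposited values are 1 linear signal per probe set and array. They had been scaled so that every array has the same trimmed mean (500.17 to 500.18), so each value is relative to the total signal of its array. The median signal of an array was 131.5 to 149.7, 20.4% to 24.1% of its probe sets were below a signal of 32, and replicates of a group correlated with Pearson r between 0.96 and 0.966 over the probe sets. The 24 probe sets for the poly-A RNAs that are added to a sample before amplification were brighter on TF arrays: their mean log2 signal was 8.24 (range 8.17 to 8.28) in TF group 1, 8.08 (8.03 to 8.18) in TF group 2, 8.14 (8.08 to 8.23) in TF group 3, and 7.35 (6.99 to 7.79) in the negative control, a difference of 0.81 between all TF arrays and the negative control. When arrays were scaled to these RNAs instead, the median change of all probe sets was -0.84, -0.69 and -0.74 on the log2 scale in TF groups 1, 2 and 3 against the negative control, as compared with 0.06, 0.05 and 0.05 on the deposited scale, since such scaling moves every change of a comparison down by the same amount. Among called probe sets the share called higher was then 4.3%, 7.58% and 6.19%. The cause of the spike difference was not tested, so every change against the negative control is given on the deposited scale. Values after poly-A scaling stand beside the called members, and for most other called genes it is said, singly or as a count over their list, whether calls held. The summed signal of 10 cardiac sarcomere genes was 5090 to 5403 in TF group 1, 6374 to 6776 in TF group 2, 12046 to 12565 in TF group 3 and 489 to 589 in the negative control. However, Tnni3, a cardiac troponin, had a mean below 32 in each of the 4 groups. So did Actn2 and Myh6 in TF groups 1 and 2 and the negative control, Myl2 in TF group 1 and Myl7 in the negative control. For TF group 1, the calls defined below placed 5 of these 10 genes above the negative control and 1 below it. The counts were 6 and 0 for TF group 2, and 8 and 0 for TF group 3. Scaled to the poly-A RNAs, they were 4 and 1, 3 and 0, and 7 and 0 for the same groups. The summed signal of 12 fibroblast genes was 87471 to 93009, 70401 to 74909 and 69198 to 72263 in TF groups 1, 2 and 3 and 70350 to 72427 in the negative control, with none of the 12 below 32. By the calls defined below, 2, 1 and 0 of the 12 were higher and 0, 2 and 3 lower (15.1%, 15.3% and 14.7% of all genes higher, 8.93%, 10.1% and 9.84% lower). After poly-A scaling 0 were higher and 7, 7 and 9 lower, where 54.5%, 44.2% and 47.4% of all probe sets were lower. Over all 12 arrays, 6 macrophage genes summed to 355 to 549 and 6 endothelial genes to 119 to 215, and 5 epithelial genes summed to 829 to 881, 850 to 904 and 731 to 779 in TF groups 1, 2 and 3 and to 527 to 601 in the negative control.

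Of the 17 member probe sets, 6 passed as higher and 1 as lower in TF group 1 against the negative control, where a call means a Benjamini-Hochberg adjusted p under 0.05 in limma, adjusted over all 22626 probe sets, and a fold change over 1.5. Over all probe sets 13.6% were called higher and 9.06% lower in that comparison. The same comparison for TF group 2 gave 5 higher and 1 lower (13.7% and 9.98% of all probe sets), and for TF group 3 gave 3 higher and 0 lower (13.6% and 9.36% of all probe sets). Several genes have more than 1 probe set, so these counts are not of independent measurements. After poly-A scaling TF group 1 had 1 higher and 8 lower (2.45% and 54.5% of all probe sets), TF group 2 had 1 and 7 (3.62% and 44.2%), and TF group 3 likewise 1 and 7 (3.13% and 47.4%), so that members were called lower at no larger share than all probe sets. The median log2 change of the member probe sets was 0.58, 0.25 and 0.34 in TF groups 1, 2 and 3. The 3 comparisons share the negative control arrays.

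Between TF groups the spikes differed little, and the comparisons turned on 3 genes: Pfkp, Pgam2 and Eno3. TF group 3 against TF group 2 gave 3 member calls higher and 1 lower (2.18% and 1.39% of all probe sets), and TF group 3 against TF group 1 likewise 3 and 1 (3.04% and 2.62% of all probe sets). These were the same probe sets, Eno3 and both of Pfkp higher and Pgam2 lower. Between TF group 2 and TF group 1, 0 were called in either direction (1.7% and 1.57% of all probe sets). At an unadjusted p under 0.05 with the same fold limit 0 were higher and 1 lower (731 and 747 of all 22626 probe sets). The plot of member changes sets the 17 probe sets side by side.

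**Figure D1:**
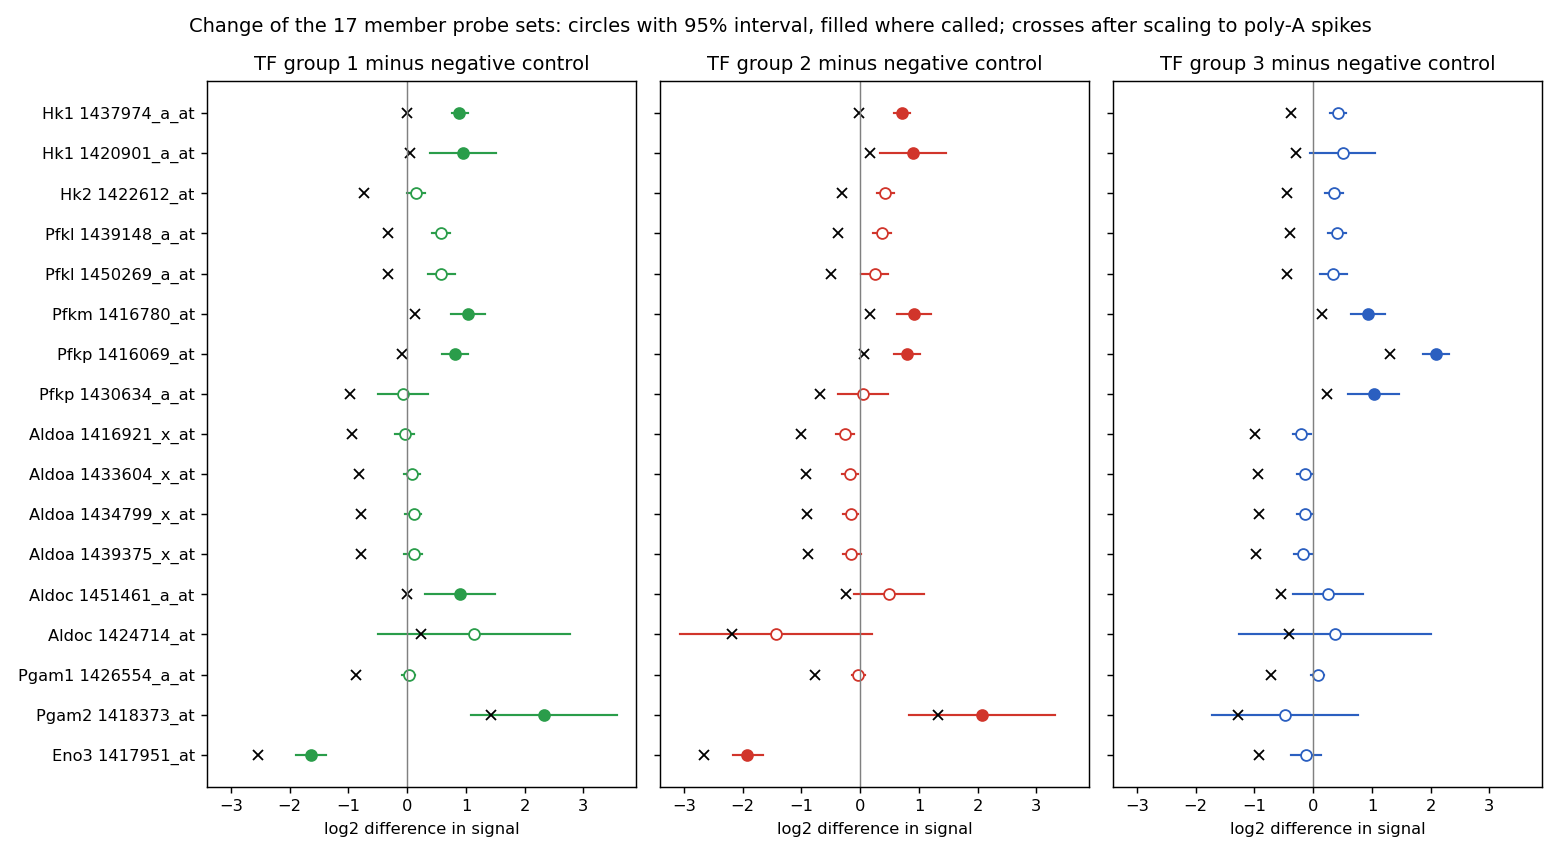
Log2 change of each of the 17 member probe sets (rows) against the negative control, in TF groups 1, 2 and 3; circles are limma estimates with 95% confidence intervals, filled where called, and crosses are the estimates after scaling the arrays to the poly-A RNAs. Pgam2 lies at 2.33 and 2.07 in TF groups 1 and 2 but at -0.48 in TF group 3, and Eno3 at -1.64, -1.92 and -0.13.

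The promoters of the 3 genes that separate TF group 3 from the other TF groups follow, since the delivered MEF2C, GATA4, TBX5 and SRF are sequence-specific factors. Windows run from 250 bases before to 50 bases after the start site, 5′ to 3′ on the gene's strand, from RefSeq (GRCm38.p6), with matches to the MEF2, CArG (the SRF box), GATA and T-box (AGGTGT) motifs in capitals.
Pgam2, chr11:5803747-5804046, minus strand: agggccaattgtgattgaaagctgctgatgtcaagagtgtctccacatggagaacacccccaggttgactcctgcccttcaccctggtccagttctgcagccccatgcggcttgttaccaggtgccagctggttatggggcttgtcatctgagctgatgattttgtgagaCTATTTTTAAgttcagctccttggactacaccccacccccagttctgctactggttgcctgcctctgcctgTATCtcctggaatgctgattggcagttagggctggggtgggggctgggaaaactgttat
Eno3, chr11:70656926-70657225, plus strand: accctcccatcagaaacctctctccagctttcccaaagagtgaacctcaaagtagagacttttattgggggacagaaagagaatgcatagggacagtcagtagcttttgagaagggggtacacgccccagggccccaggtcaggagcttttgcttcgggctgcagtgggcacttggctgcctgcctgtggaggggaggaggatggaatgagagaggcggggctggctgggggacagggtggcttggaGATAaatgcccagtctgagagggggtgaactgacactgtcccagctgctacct
Pfkp, chr13:6648722-6649021, minus strand: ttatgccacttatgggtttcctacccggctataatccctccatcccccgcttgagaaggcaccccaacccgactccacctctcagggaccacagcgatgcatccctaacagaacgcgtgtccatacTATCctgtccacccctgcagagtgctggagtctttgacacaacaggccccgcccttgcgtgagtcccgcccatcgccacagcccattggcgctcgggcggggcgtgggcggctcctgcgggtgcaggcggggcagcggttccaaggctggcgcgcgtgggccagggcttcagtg
Counted from the start site, the window of Pgam2 holds a MEF2 match at -80 and a GATA match, read as TATC on this strand, at -9. Eno3 has a GATA match at -3 and Pfkp a TATC at -124. The Eno3 and Pfkp windows lie inside the annotated spans of their genes (chr11:70653125-70662513 and chr13:6579874-6649060), downstream of the first base, while the Pgam2 window covers the start of its gene (chr11:5801637-5803796).

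All 10 members had at least 1 window, 17 in all. Pgam2 was the only member with a MEF2 match, a motif found in 3.19% of the 32851 windows of all genes. A CArG match was in a window of 0 of the 10 members (1.63% of all windows), and an AGGTGT match in that of 1 member, Hk1 (13.7%). GATA, the bare 4 letters, was in windows of 8 members (57.9% of all windows), and the E-box CANNTG, the general site of basic helix-loop-helix factors such as Mesp1, in those of 7 members (72.3%), with 5 in that of Pgam2. Both strands were searched, and AGGTGT and CANNTG matches can share bases. Genes with several windows have more chances of a match, and a match describes letters in a window, not a bound site.

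Hk1 and Hk2 encode the hexokinases that phosphorylate glucose on entry to the cell. Hk1 is the widely expressed form and Hk2 the form of insulin-sensitive tissues such as skeletal muscle and heart. On the deposited scale Hk1 rose in TF groups 1 and 2, and Hk2 was not called in any comparison. The brightest Hk1 probe set (1437974_a_at, gene at chr10:62268855-62379920) had signals of 1496, 1349 and 1456 in TF group 1, 1282, 1257 and 1256 in TF group 2, 995.8, 1098 and 1013 in TF group 3 and 785.4, 772.5 and 757.0 in the negative control. Arrays of the 4 groups did not overlap, with TF group 1 highest and the negative control lowest. Against the negative control, Hk1 rose 1.86-fold in TF group 1 (0.89 on the log2 scale, SE 0.06, limma adjusted p = 3.2e-06) and 1.64-fold in TF group 2 (0.71, adjusted p = 1.14e-05). In TF group 3 it was 1.34-fold above the negative control, which passed the p threshold (adjusted p = 0.000372) but not the fold limit. The difference was -0.47 between TF group 3 and TF group 1 (adjusted p = 0.000979) and -0.29 between TF group 3 and TF group 2 (adjusted p = 0.0185), again under the fold limit, and -0.18 between TF group 2 and TF group 1 (adjusted p = 0.128). Scaled to the poly-A RNAs, the Hk1 changes were -0.01 (adjusted p = 0.98), -0.02 (adjusted p = 0.922) and -0.37 (adjusted p = 0.131), so the rise depends on the scaling.

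The dimmer Hk1 probe set (1420901_a_at) had 131.5, 97.54 and 124.4 in TF group 1, 100.5, 115.2 and 124.3 in TF group 2, 55.51, 103.0 and 110.0 in TF group 3 and 52.56, 61.08 and 68.72 in the negative control. TF groups 1 and 2 lay above every negative control array, whereas 1 of 3 arrays of TF group 3 lay among them. The changes were 0.95 in TF group 1 (SE 0.25, limma adjusted p = 0.0125) and 0.90 in TF group 2 (adjusted p = 0.0156), both called, and 0.50 in TF group 3 (adjusted p = 0.144). The call in TF group 2 was lost without negative control replicate 1 (0.80, adjusted p = 0.0545) or TF group 2 replicate 3 (0.83, adjusted p = 0.053), and both calls were lost after poly-A scaling (0.05 and 0.16). The probe set shared with other symbols changed by 0.11, 0.05 and 0.01 and was not called.

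Hk2 (1422612_at, chr6:82725025-82774454) had signals of 679.3, 707.6 and 696.8 in TF group 1, 838.2, 859.9 and 828.9 in TF group 2, 826.9, 749.8 and 814.7 in TF group 3 and 677.8, 596.9 and 600.7 in the negative control. All TF arrays were above the negative control arrays. The log2 changes of 0.15 (limma adjusted p = 0.0991), 0.43 (adjusted p = 0.000574) and 0.35 (adjusted p = 0.00214) stayed under the fold limit, and after poly-A scaling were -0.74, -0.31 and -0.44, of which the first was called lower (adjusted p = 0.00334). TF group 2 was 0.28 above TF group 1 (adjusted p = 0.0383), also under the limit.

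**Figure D2:**
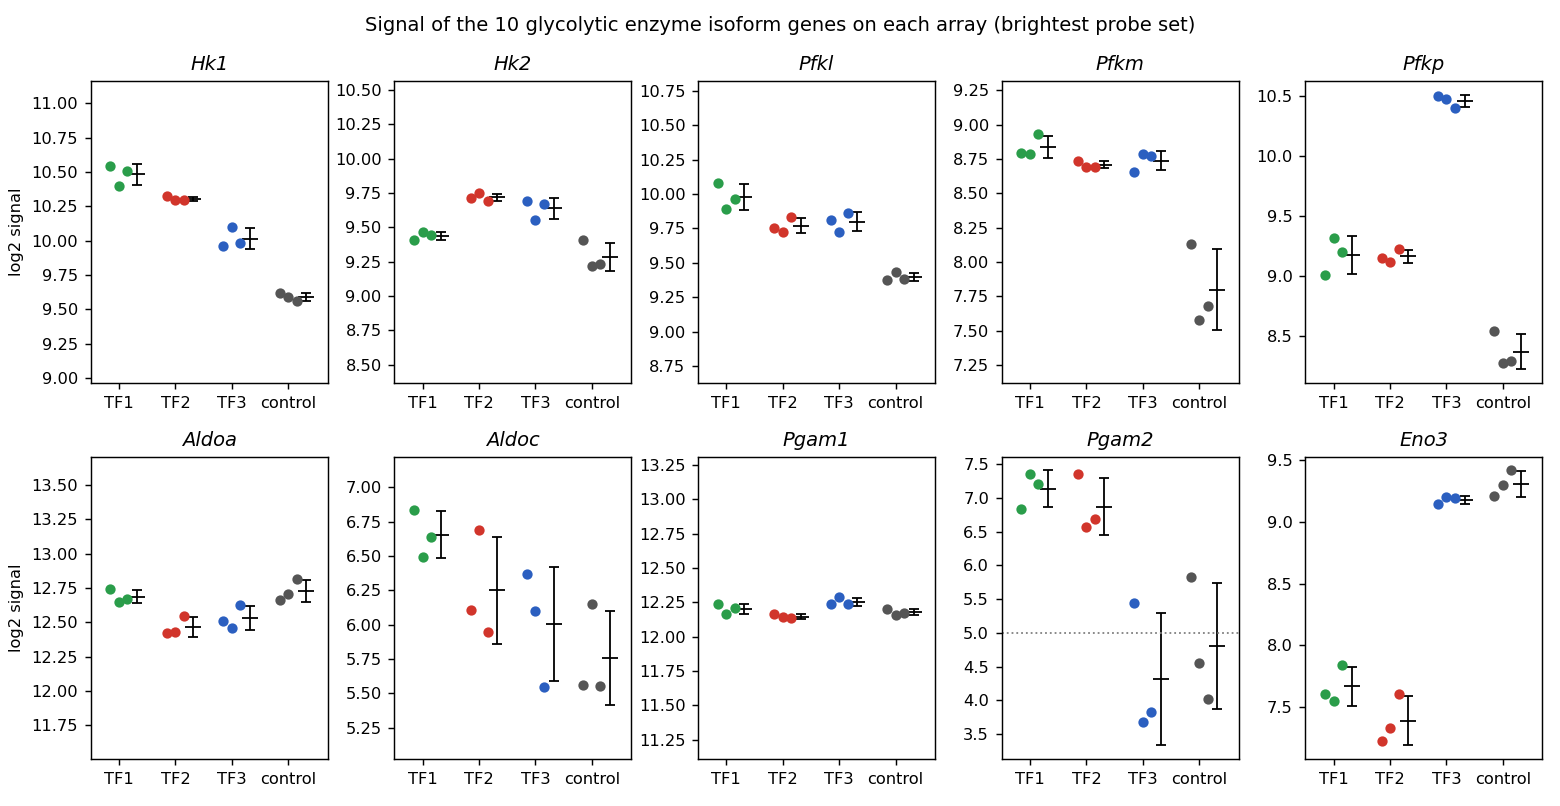
Log2 signal of the brightest probe set of each of the 10 genes, 1 panel per gene with its own vertical scale; points are the 3 arrays of each group and bars show the mean and SD, and the dotted line in the Pgam2 panel is a signal of 32. The 3 TF group 3 arrays of Pfkp (1351 to 1446) lie above all other arrays, and the Eno3 arrays of TF groups 1 and 2 (149.9 to 229.7) lie below all others.

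Phosphofructokinase commits sugar to glycolysis as a tetramer of muscle (Pfkm), liver (Pfkl) and platelet (Pfkp) subunits. Pfkm rose in all 3 TF groups and Pfkp was highest in TF group 3, while Pfkl was not called. Pfkm (1416780_at, chr15:98092589-98132447) had 443.6, 441.3 and 488.4 in TF group 1, 426.7, 413.2 and 413.8 in TF group 2, 403.1, 441.3 and 436.4 in TF group 3 and 280.7, 191.2 and 204.8 in the negative control. No TF array overlapped with the negative control, of which replicate 1 was the highest. The gene was 2.06-fold (log2 1.04, SE 0.13, limma adjusted p = 0.000142), 1.88-fold (0.91, adjusted p = 0.000311) and 1.92-fold (0.94, adjusted p = 0.000265) higher in TF groups 1, 2 and 3. Between TF groups the differences were -0.13, 0.03 and -0.10, and the 95% interval of the difference between TF group 3 and TF group 1 ran between -0.39 and 0.19. All 3 calls were lost after poly-A scaling, where the changes were 0.14, 0.17 and 0.15 (adjusted p = 0.393, 0.318 and 0.386).

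Pfkp (1416069_at, chr13:6579874-6649060) had signals of 513.9, 636.8 and 588.1 in TF group 1, 566.1, 553.6 and 597.5 in TF group 2, 1446, 1425 and 1351 in TF group 3 and 371.6, 308.7 and 313.0 in the negative control. TF group 3 stood above every other array, and TF groups 1 and 2 overlapped with each other above the negative control. Against the negative control Pfkp was 1.75-fold higher in TF group 1 (log2 0.81, SE 0.10, limma adjusted p = 0.000126), 1.73-fold in TF group 2 (0.79, adjusted p = 0.000129) and 4.26-fold in TF group 3 (2.09, adjusted p = 3.17e-07). Its TF group 3 level was 2.46-fold that of TF group 2 (1.30, adjusted p = 6.84e-05) and 2.44-fold that of TF group 1 (1.28, adjusted p = 5.32e-05). Poly-A scaling ended the calls of TF group 1 (-0.09, adjusted p = 0.634) and TF group 2 (0.06, adjusted p = 0.783). The TF group 3 calls held, at 1.30 against the negative control (adjusted p = 0.000165), 1.24 against TF group 2 (adjusted p = 0.00477) and 1.39 against TF group 1 (adjusted p = 0.00133).

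The second Pfkp probe set (1430634_a_at) was dim and differed in part. It had 55.27, 42.61 and 62.29 in TF group 1, 53.74, 73.40 and 47.05 in TF group 2, 113.3, 114.3 and 111.1 in TF group 3 and 56.66, 63.61 and 46.94 in the negative control. The arrays of TF groups 1 and 2 overlapped with the negative control (-0.07, limma adjusted p = 0.817, and 0.04, adjusted p = 0.885), so it did not show the rise of the brighter probe set there. In TF group 3 it was 2.04-fold above the negative control (1.03, SE 0.19, adjusted p = 0.00182), 1.98-fold above TF group 2 (0.98, adjusted p = 0.0125) and 2.14-fold above TF group 1 (1.10, adjusted p = 0.00479). After poly-A scaling these were 0.24 (adjusted p = 0.479), 0.93 (adjusted p = 0.215) and 1.2 (adjusted p = 0.0505), none of them called.

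Pfkl (1439148_a_at, chr10:77986947-78009807) had signals of 1081, 948.5 and 998.9 in TF group 1, 864.6, 845.4 and 910.2 in TF group 2, 896.8, 846.8 and 930.6 in TF group 3 and 664.7, 689.8 and 669.0 in the negative control. Every TF array was above the negative control, by 0.58 (limma adjusted p = 9.03e-05, 1.49-fold), 0.37 (adjusted p = 0.00138, 1.29-fold) and 0.40 (adjusted p = 0.000917, 1.32-fold), all under the fold limit. A second Pfkl probe set (1450269_a_at) changed by 0.58, 0.25 and 0.34 and was not called either.

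Aldolase splits the doubly phosphorylated sugar into trioses. Aldoa is the muscle and general form and Aldoc the form of brain. Aldoa (chr7:126795234-126800994) was not called in any comparison on the deposited scale. Its brightest probe set (1416921_x_at) had 6852, 6415 and 6519 in TF group 1, 5480, 5510 and 5981 in TF group 2, 5832, 5626 and 6329 in TF group 3 and 6474, 6671 and 7213 in the negative control. The arrays of TF group 1 overlapped with the negative control and those of TF groups 2 and 3 lay below it, with changes of -0.04, -0.26 and -0.20 (limma adjusted p = 0.703, 0.0139 and 0.0526). The other 3 Aldoa probe sets changed by between -0.18 and 0.11. All 4 carry the suffix of probes that may also bind related transcripts, and all 4 were called lower in each TF group after poly-A scaling, where they fell by 0.79 or more on the log2 scale.

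Aldoc (1451461_a_at, chr11:78323073-78327781) was dim, with 114.0, 90.06 and 99.48 in TF group 1, 69.00, 103.1 and 61.77 in TF group 2, 82.47, 68.59 and 46.77 in TF group 3 and 47.15, 71.03 and 46.93 in the negative control. The TF group 1 arrays were above the negative control, and those of TF groups 2 and 3 overlapped with it. The change in TF group 1 was called (0.90, SE 0.27, limma adjusted p = 0.0226, 1.87-fold) and those in TF group 2 (0.49, adjusted p = 0.178) and TF group 3 (0.25, adjusted p = 0.514) were not. The TF group 1 call was lost without negative control replicate 1 (0.80, adjusted p = 0.0726) or replicate 3 (0.80, adjusted p = 0.0748), without TF group 1 replicate 1 (0.81, adjusted p = 0.0738) or replicate 3 (0.91, adjusted p = 0.0541), and after poly-A scaling (0.00, adjusted p = 0.997). Since Aldoc is the form of brain, 6 general neuronal genes were looked at, although these do not single out the brain cells that express it. Their summed signal was 3696 to 4385 in TF group 1, 2502 to 3013 in TF group 2, 2471 to 2899 in TF group 3 and 994 to 1105 in the negative control. Of the 6, Tubb3, Stmn2 and Snap25 were called higher in each TF group, while Map2, Rbfox3 and Syp were not called (Map2 changed by -0.52, 0.07 and -0.04, and after poly-A scaling was called lower). Over all genes 15.1%, 15.3% and 14.7% were called higher in TF groups 1, 2 and 3. After poly-A scaling 2, 2 and 1 of the 6 neuronal genes were still called higher (2.45%, 3.62% and 3.13% of all probe sets). The part of neuronal RNA in the Aldoc result was not tested. A second Aldoc probe set (1424714_at) stayed between 0.6865 and 14.00 on all 12 arrays and had no call.

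Phosphoglycerate mutase moves the phosphate within phosphoglycerate. Its general subunit Pgam1 was not called on the deposited scale, and the muscle subunit Pgam2 rose in TF groups 1 and 2 but not in TF group 3. Pgam1 (1426554_a_at, chr19:41911871-41918665) had 4830, 4597 and 4723 in TF group 1, 4583, 4518 and 4494 in TF group 2, 4830, 4997 and 4829 in TF group 3 and 4711, 4564 and 4617 in the negative control. Its changes of 0.03, -0.03 and 0.08 had 95% intervals that together ran between -0.14 and 0.18. After poly-A scaling it was called lower in each TF group, at -0.87, -0.77 and -0.72.

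Pgam2 (1418373_at, chr11:5801637-5803796) had signals of 113.6, 164.2 and 147.8 in TF group 1, 163.1, 95.09 and 102.9 in TF group 2, 43.66, 12.84 and 14.17 in TF group 3 and 56.97, 23.55 and 16.16 in the negative control. Every array of TF groups 1 and 2 was above every array of TF group 3 and the negative control, which overlapped with each other at the low end of the range. Since the mean of the negative control and of TF group 3 lay below a signal of 32, folds are given with 32 in place of that mean. Such a fold is not a lower bound, as single arrays and the confidence intervals allow smaller changes. Against the negative control, Pgam2 was in this way 4.38-fold higher in TF group 1 (log2 2.33, SE 0.55, 95% interval between 1.09 and 3.57, limma adjusted p = 0.00756). In TF group 2, Pgam2 was 3.65-fold higher (2.07, 95% interval between 0.83 and 3.31, adjusted p = 0.0135). In TF group 3 it differed from the negative control by -0.48 (adjusted p = 0.548, 95% interval between -1.72 and 0.76). With 32 in place of its mean, the TF group 3 level was 3.65-fold below that of TF group 2 (-2.55, adjusted p = 0.0215) and 4.38-fold below that of TF group 1 (-2.81, adjusted p = 0.00897).

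The Pgam2 calls that involve TF group 1 held with each array left out, and those that involve TF group 2 did not. Against the negative control, the call was lost without negative control replicate 3 (1.67, limma adjusted p = 0.0513) or TF group 2 replicate 1 (1.83, adjusted p = 0.0508). The difference between TF group 3 and TF group 2 was not called without TF group 2 replicate 1 (-2.31, adjusted p = 0.0782), replicate 2 (-2.70, adjusted p = 0.0513) or replicate 3 (-2.64, adjusted p = 0.0571), without TF group 3 replicate 2 (-2.23, adjusted p = 0.0758) or replicate 3 (-2.30, adjusted p = 0.0793). Pgam2 was the member probe set called higher in TF groups 1 and 2 after poly-A scaling (1.43, adjusted p = 0.0172, and 1.33, adjusted p = 0.0282), and in TF group 3 it was then called lower (-1.28, adjusted p = 0.0317). Over the 12 arrays, the genes whose signal was most like that of Pgam2 were Zscan21 (Pearson r = 0.932), Mylip (0.931) and Plscr3 (0.92), among the 10832 probe sets with 1 symbol and a mean log2 signal of at least 7, a limit above the mean of Pgam2 itself (5.78), as a description that includes the differences between groups.

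Enolase makes phosphoenolpyruvate, and Eno3 encodes its muscle form. Eno3 fell in TF groups 1 and 2 and stayed near the negative control in TF group 3. Its probe set (1417951_at, chr11:70653125-70662513) had signals of 194.4, 187.7 and 229.7 in TF group 1, 149.9, 160.8 and 195.3 in TF group 2, 565.4, 588.1 and 586.7 in TF group 3 and 592.6, 627.7 and 682.9 in the negative control. TF groups 1 and 2 overlapped with each other far below the other groups, and the TF group 3 arrays all lay a little below the negative control. Against the negative control, Eno3 was 3.12-fold lower in TF group 1 (log2 -1.64, SE 0.11, limma adjusted p = 3.47e-06) and 3.78-fold lower in TF group 2 (-1.92, adjusted p = 1.03e-06), while TF group 3 differed by -0.13 (adjusted p = 0.429, 95% interval between -0.38 and 0.13). The TF group 3 level was 3.46-fold that of TF group 2 (1.79, adjusted p = 2.77e-05) and 2.86-fold that of TF group 1 (1.51, adjusted p = 4.9e-05). After poly-A scaling the changes against the negative control were -2.54, -2.66 and -0.92, all called lower, and the differences of TF group 3 with TF groups 2 and 1 were 1.74 and 1.62, both called.

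Pgam2 and Eno3 are both muscle isoforms, and they moved in opposite directions in TF groups 1 and 2. The summed signal of 14 skeletal muscle genes was 1094 to 1223 in TF group 1, 1757 to 1987 in TF group 2, 1615 to 1745 in TF group 3 and 1914 to 2024 in the negative control. Of the listed regulators of skeletal muscle, Myog and Myf6 had means below 32 in each of the 4 groups, Myf5 in TF group 1 only, and Myod1 in none. Myh4 and Tnnt3 also had means below 32 in each of the 4 groups. Of the 14, 2, 3 and 3 were called higher and 1 lower in TF groups 1, 2 and 3 (list medians 0.35, 0.24 and 0.41). Over all genes 15.1%, 15.3% and 14.7% were called higher and 8.93%, 10.1% and 9.84% lower, so these counts are not read as a result about the list. Acta1, the skeletal muscle actin, was the gene called lower, with log2 changes of -2.73, -2.67 and -1.39. Myh1 and Myh2, myosin heavy chains of fast fibres, were called higher in each TF group, with changes of 3.35, 4.58 and 3.48 for Myh1 and of 2.19, 2.35 and 1.30 for Myh2, of which the last was no longer called after poly-A scaling. Ckm, the muscle creatine kinase, had a mean below 32 in TF group 3 only. What part these genes' cells have in the levels of Pgam2 and Eno3 was not tested.

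A ratio of isoforms within an array is not changed by a factor common to the whole array, such as median or poly-A scaling, although quantile normalization can change it, so 6 log2 ratios were taken, each from the brightest probe sets of the genes. Probe sets differ in brightness for the same amount of RNA, so a ratio gives no relative abundance, and only its difference between groups is compared. With 3 arrays against 3 an exact permutation test cannot go below 0.10, so the 9 TF arrays were set against the 3 of the negative control, and the 3 of TF group 3 against the 6 of TF groups 1 and 2, in two-sided exact permutation tests adjusted over the 6 ratios.

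Between TF group 3 and the other TF groups, 3 of 6 ratios differed. The log2 ratio of Pfkp over Pfkl was 0.69, 0.75 and 0.54 on the TF group 3 arrays, against -1.07, -0.57 and -0.76 in TF group 1 and -0.61 on each array of TF group 2, a difference of 1.37 (exact permutation p = 0.0119, adjusted p = 0.0238). Pfkm over Pfkp was -1.84, -1.69 and -1.63 in TF group 3, against -0.21, -0.53 and -0.27 in TF group 1 and against -0.41, -0.42 and -0.53 in TF group 2, a difference of -1.33 (exact p = 0.0119, adjusted p = 0.0238). The platelet subunit therefore gained on both other subunits in TF group 3, while Pfkm over Pfkl differed by 0.04 (exact p = 0.595). Pgam2 over Pgam1 was -6.79, -8.60 and -8.41 in TF group 3, against -5.41, -4.81 and -5.00 in TF group 1 and against -4.81, -5.57 and -5.45 in TF group 2, a difference of -2.76 (exact p = 0.0119, adjusted p = 0.0238). Since Pgam2 was dim in TF group 3, the size of this difference is not exact, and with signals below 32 set to 32, a setting chosen after seeing the data, it was -1.93 (adjusted p = 0.0238). For these ratios no TF group 3 array overlapped with the others, and 0.0119 is the smallest p that 84 splits allow. The 3 ratios take up genes already described, so they repeat those differences as ratios.

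The hexokinase and aldolase ratios did not pass. Hk2 over Hk1 averaged -1.04 ± 0.11 in TF group 1, -0.59 ± 0.03 in TF group 2, -0.38 ± 0.15 in TF group 3 and -0.31 ± 0.08 in the negative control (SD, n = 3 each). TF group 3 was thus 0.44 above TF groups 1 and 2 (exact permutation p = 0.0357, adjusted p = 0.0536). Aldoa over Aldoc averaged 6.03 ± 0.12, 6.22 ± 0.44 and 6.53 ± 0.49 in TF groups 1, 2 and 3 and 6.97 ± 0.37 in the negative control, and differed by 0.40 between TF group 3 and the other TF groups (exact p = 0.179, adjusted p = 0.214).

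Of the 6 ratios, 0 passed between TF arrays and the negative control. The nearest was Pfkm over Pfkl, which averaged -1.14 ± 0.13, -1.06 ± 0.06 and -1.06 ± 0.11 in TF groups 1, 2 and 3 and -1.60 ± 0.32 in the negative control (SD, n = 3 each), a difference of 0.51 (exact permutation p = 0.00909, adjusted p = 0.0545). The spread of the negative control came from replicate 1, at -1.24, against -1.85 and -1.71. This ratio passed without TF group 1 replicate 1, TF group 2 replicate 3 or TF group 3 replicate 3 (adjusted p = 0.0364 each). Aldoa over Aldoc was -0.71 lower on TF arrays (exact p = 0.0227, adjusted p = 0.0682), and passed without TF group 2 replicate 3 or TF group 3 replicate 3 (adjusted p = 0.0364 each). The other differences were -0.36 for Hk2 over Hk1 (exact p = 0.0864), 0.78 for Pfkp over Pfkl (exact p = 0.0909), -0.27 for Pfkm over Pfkp (exact p = 0.532) and 1.28 for Pgam2 over Pgam1 (exact p = 0.205). These tests pool the 3 TF groups, so a ratio that moved in some groups only, or in opposite directions, is averaged. Against the negative control, Pgam2 over Pgam1 differed by 2.3, 2.1 and -0.56 in TF groups 1, 2 and 3. The same differences were 0.23, 0.42 and 1.69 for Pfkp over Pfkl, and 0.23, 0.12 and -1.15 for Pfkm over Pfkp.

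**Figure D3:**
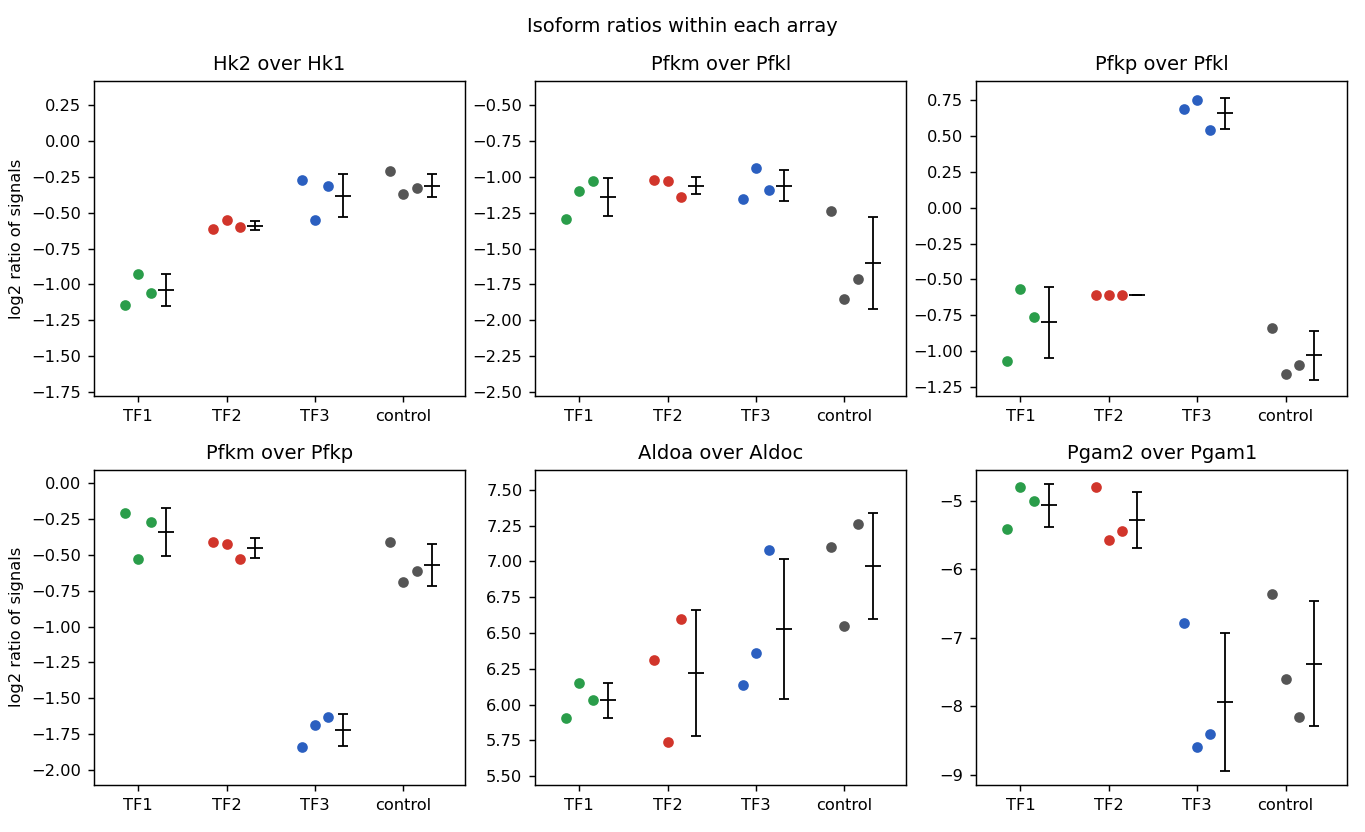
Log2 ratio of isoforms within each array, 1 panel per ratio, for TF groups 1, 2 and 3 and the negative control; points are arrays and bars show the mean and SD of 3 arrays. Pfkp over Pfkl lies between 0.54 and 0.75 in TF group 3 and between -1.16 and -0.57 on all other arrays, and Pgam2 over Pgam1 is -5.57 or higher in TF groups 1 and 2 only.

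The other glycolytic enzymes gave 3 genes called higher and 0 lower in each TF group, of 9 measured of 15 listed, where over all genes at their brightest probe sets 15.1% were called higher and 8.93% lower in TF group 1, 15.3% and 10.1% in TF group 2, 14.7% and 9.84% in TF group 3. The list median was 0.11, 0.07 and 0.20 (0.07, 0.06 and 0.05 over all genes). Eno2, the neuronal enolase, rose by 1.87, 1.75 and 1.80 on the log2 scale in TF groups 1, 2 and 3 (limma adjusted p = 3.44e-07, 3.35e-07 and 3.42e-07). Among the measured enolases Eno2 was thus higher in every TF group and Eno3 lower in TF groups 1 and 2. Eno1, a further listed enolase, had no probe set under that symbol, so the balance of all enolases is not known. Ldhb, the lactate dehydrogenase subunit typical of heart, rose by 1.92, 2.07 and 1.63, and Bpgm, the bisphosphoglycerate mutase of red cells, by 0.96, 0.89 and 0.87. The calls of Eno2 (0.97, 1.01 and 1.01) and Ldhb (1.02, 1.34 and 0.84) held after poly-A scaling and those of Bpgm did not. Tpi1, Pgk1, Pkm and Ldha, enzymes of the later steps with general expression, were not called, with changes between -0.40 and 0.22. Adpgk, an ADP-dependent sugar kinase, and Pklr, the pyruvate kinase of liver and red cells, were not called either (0.08, -0.14 and -0.45, and -0.40, -0.05 and -0.25). After poly-A scaling 6, 5 and 5 of the 9 were called lower, where 54.5%, 44.2% and 47.4% of all probe sets were. Tpi1, Pgk1, Ldha and Adpgk were among them in each TF group, Pkm in TF groups 1 and 2, and Pklr in TF groups 1 and 3. Listed enzymes beyond these 9 were not analysed here. As given with Aldoc, 3 of 6 neuronal genes were called higher in each TF group, and their part in the level of Eno2 was not tested.

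Of 8 genes for glucose uptake and lactate transport, 2 were called higher and 0 lower in each TF group (list medians 0.54, 0.28 and 0.34). The counts of this and the following lists stand beside 15.1%, 15.3% and 14.7% of all genes called higher and 8.93%, 10.1% and 9.84% called lower, and in lists this short a count of a few genes is not read as a result about the list. Slc2a3, a high-affinity glucose transporter, rose by 1.94, 1.17 and 1.74, and Slc2a8, an intracellular glucose transporter, by 0.95, 0.98 and 1.11. After poly-A scaling only the Slc2a3 calls in TF groups 1 (1.04) and 3 (0.95) remained. The main transporter Slc2a1 changed by -0.17, -0.40 and -0.26 and was not called, but after poly-A scaling it was called lower in each TF group (-1.07, -1.14 and -1.05).

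Among 8 measured of 11 genes for the Pfkfb enzymes, which set the level of the main activator of phosphofructokinase, and for gluconeogenesis, 2, 1 and 2 were called higher in TF groups 1, 2 and 3 and 0 lower (list medians 0.26, 0.43 and 0.11). Pcx, the pyruvate carboxylase, rose by 2.45, 1.94 and 1.80, calls that held after poly-A scaling (1.55, 1.21 and 1.01). Pfkfb3 rose by 0.67 in TF group 1 and 0.72 in TF group 3 and changed by 0.57 in TF group 2, and no call of it held after poly-A scaling.

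The glycogen list had 4, 3 and 3 genes called higher and 0 lower of 12 measured of 13 (list medians 0.19, 0.39 and 0.21), against 15.1%, 15.3% and 14.7% of all genes called higher. Pygl, the liver glycogen phosphorylase, rose by 1.38 in TF group 1 and 1.09 in TF group 2 and changed by 0.18 in TF group 3. Phkb, a phosphorylase kinase subunit, rose by 1.11, 1.05 and 0.92, and Pgm1, a phosphoglucomutase, by 0.64, 0.64 and 0.79. Gyg, which primes glycogen synthesis, rose by 1.08 in TF group 1 and 1.03 in TF group 3 and changed by 0.50 in TF group 2. None of these calls held after poly-A scaling. Pygm, the muscle phosphorylase, was not called (-0.10, 0.27 and 0.07), but was called lower after poly-A scaling in TF groups 1 (-1) and 3 (-0.73).

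At the exit of the pathway, 3, 3 and 2 of 8 measured genes of 9 for pyruvate dehydrogenase and its kinases were called higher and 0 lower (list medians 0.45, 0.42 and 0.53), and the called genes were all kinases, which inhibit the complex. Pdk4 rose by 1.63, 1.59 and 1.34, Pdk2 by 1.12, 0.95 and 0.94, and Pdk1 by 0.90 in TF group 1 and 0.83 in TF group 2, with a change of 0.52 in TF group 3. After poly-A scaling the Pdk4 calls in TF groups 1 (0.73) and 2 (0.86) remained. Of 6 measured of 7 pentose phosphate genes, 0, 1 and 1 were called higher and 1 lower in each TF group (list medians -0.14, -0.06 and -0.04). The gene called lower was Rpia, the ribose phosphate isomerase (-0.60, -0.65 and -0.68), and Taldo1, the transaldolase, rose by 0.75 in TF group 2 and 0.66 in TF group 3 and changed by 0.40 in TF group 1. The Rpia calls held after poly-A scaling and those of Taldo1 did not.

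Genes known as targets of the hypoxia response, other than glycolytic enzymes, gave 9, 7 and 10 called higher and 1 lower of 15 measured of 16 (list medians 0.77, 0.65 and 0.78) beside the 15.1%, 15.3% and 14.7% of all genes called higher. Egln3, an oxygen-sensing prolyl hydroxylase, rose by 1.75, 1.07 and 0.59, Bnip3, a mitophagy receptor, by 1.46, 1.17 and 1.08, and Mxi1, an antagonist of Myc, by 1.12, 1.17 and 1.04. In TF group 1, Car9, a carbonic anhydrase, was called higher (log2 2.50, 95% interval between 0.81 and 4.19, limma adjusted p = 0.0245). Its negative control signal was dim and variable (mean log2 3.72, SD 1.82), so the size of this change is not exact. Scaled to the poly-A RNAs, the Car9 change was 1.6 (adjusted p = 0.0503) and was not called. Adm, which encodes adrenomedullin, was called lower, with changes of -2.17, -2.67 and -2.97. After poly-A scaling 1, 0 and 0 genes of this list were called higher and 4, 4 and 3 lower, where 54.5%, 44.2% and 47.4% of all probe sets were called lower, with list medians of -0.13, -0.09 and -0.02. With each array centred on its median, 8, 4 and 9 were called higher. Of 5 measured of 8 regulators of glycolysis, 1, 0 and 1 were called higher and 1, 1 and 0 lower (list medians 0.21, -0.06 and 0.23): Esrra, a nuclear receptor of energy metabolism, rose by 0.63 in TF group 1 and 0.75 in TF group 3, calls that ended after poly-A scaling, and Myc, the growth regulator, fell by 0.92 in TF group 1 and 0.90 in TF group 2. Hif1a, the hypoxia factor, changed by -0.10, -0.41 and 0.23 and was not called, but after poly-A scaling it was called lower in TF groups 1 (-1) and 2 (-1.15). The medians of the 8 lists were below 0 in each TF group after poly-A scaling, and with each array centred on its median the median of the other glycolytic enzymes was -0.02 and -0.03 in TF groups 1 and 2.

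**Figure D4:**
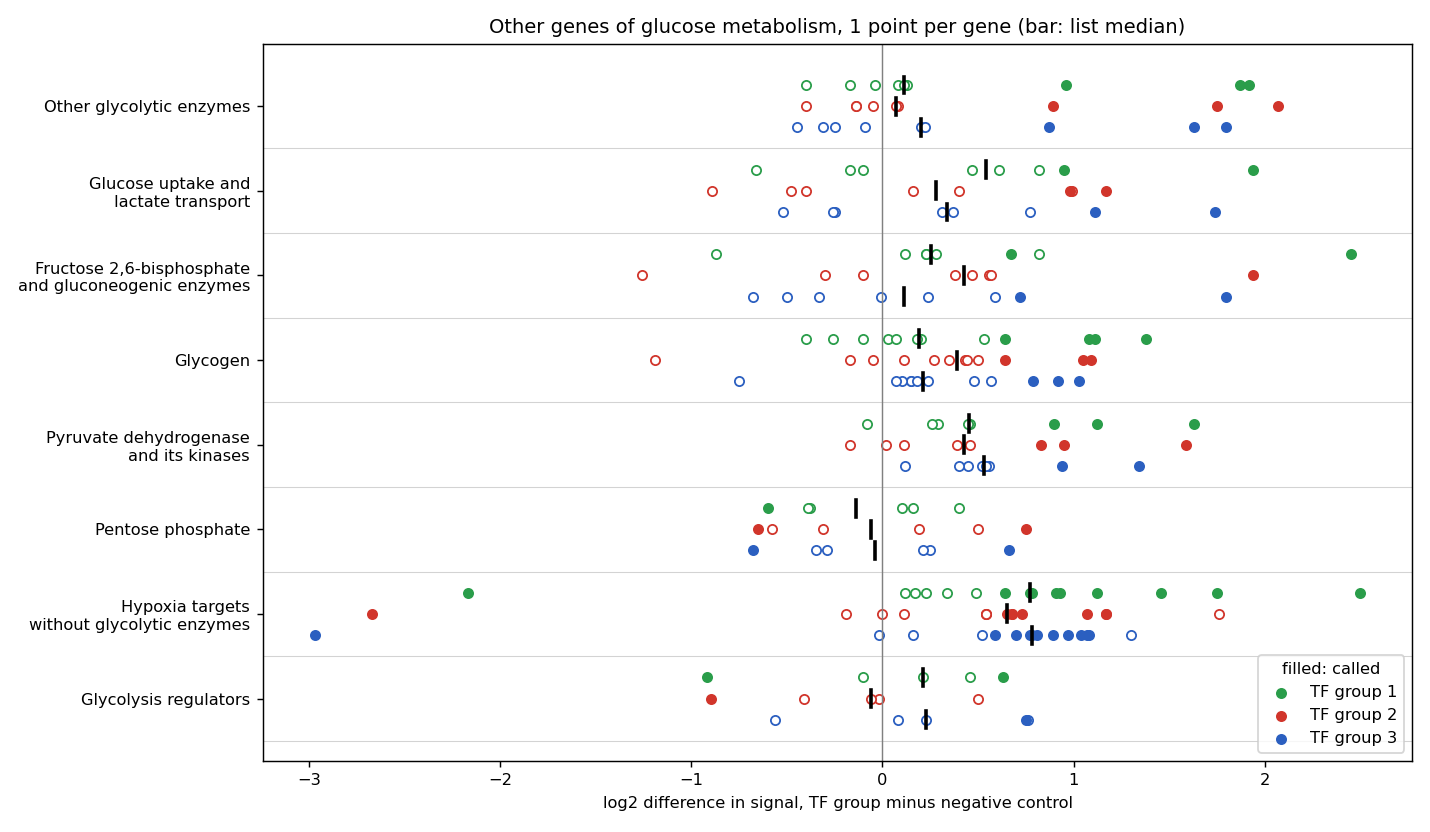
Log2 change of each gene of the 8 lists against the negative control in TF groups 1, 2 and 3, on the deposited scale; filled points are called, and black bars are list medians. The medians of the hypoxia targets lie at 0.77, 0.65 and 0.78, and those of the pentose phosphate genes at -0.14, -0.06 and -0.04.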

How the data were processed

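Affymetrix Mouse Genome 430A 2.0 arrays measured RNA of MEFs in 4 groups of 3. The deposited intensity values are 1 linear signal per probe set and array, which the authors or their array core prepared. The submitters' processing notes name RMA and Partek without versions. RMA gives log2 values, and these are linear with values under 1, so the method behind the signal is not settled.

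Signals were taken to log2 without rescaling. Of 22690 probe sets, 64 controls were set aside, and of the 22626 tested, 20380 carried 1 symbol, 691 several and 1555 none in the platform annotation. limma 3.58.1 in R 4.3.3 fitted 1 mean per group over all 12 arrays (lmFit, contrasts, eBayes), with p-values adjusted over all probe sets of a comparison. The brightest probe set stood for a gene in lists and ratios. Ratios, exact permutation tests and motif searches ran in Python 3.11.15. The 3 arrays per group limit the precision (median SE of a log2 change 0.16). The fit step was tested on simulated data, and the permutation step was checked only on constructed cases with known answers.

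Named are all members, each with its value on every array where a probe set was called, up to 4 called genes per list and direction with the largest change, and the 3 genes most like the member with the widest range. Tpi1, Pgk1, Pkm, Ldha, Adpgk, Pklr, Slc2a1, Pygm and Hif1a, and the marker genes Acta1, Ckm, Myh1, Myh2, Myod1, Myf5, Tubb3, Stmn2, Snap25, Map2, Rbfox3 and Syp, were named after their values were seen. The members and lists were chosen with earlier results of these data known. Alternatives were other scalings (median, quantile, poly-A RNAs), an offset of 50, a minimum mean log2 signal of 5, other variance models and thresholds, only the groups compared, a replicate block, the mean of a gene's probe sets for ratios, and leaving out each array. Ratios with signals below 32 set to 32 were added after seeing the data. The study's external heart and MEF arrays were not used here.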

Additional observations from a re-analysis of the deposited data

Results flagged for a closer look

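For 3 genes the effect of the factors against the negative control differed between TF groups in a direct limma comparison of the groups. On the log2 scale, Eno3 in TF group 3 exceeded TF group 2 by 1.79 (adjusted p = 2.77e-05) and TF group 1 by 1.51 (adjusted p = 4.9e-05). The brighter Pfkp probe set (1416069_at) was higher in TF group 3 by 1.30 against TF group 2 (adjusted p = 6.84e-05) and by 1.28 against TF group 1 (adjusted p = 5.32e-05), and the dimmer one (1430634_a_at) by 0.98 (adjusted p = 0.0125) and 1.10 (adjusted p = 0.00479). Pgam2 differed by -2.55 between TF group 3 and TF group 2 (adjusted p = 0.0215) and by -2.81 between TF group 3 and TF group 1 (adjusted p = 0.00897). In each of these 8 comparisons the 3 arrays of TF group 3 lay on 1 side of all 3 arrays of the other group. The groups of 3 arrays were too small to look for outlying arrays.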

How the results depend on the processing

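The scaling mattered most. Scaled to the poly-A RNAs, member probe sets called higher and lower against the negative control numbered 1 and 8 in TF group 1, with 1 and 7 for each of the others, and the changes of Pfkp (1416069_at) in TF group 1 and of Hk1 (1437974_a_at) in TF groups 1 and 2 turned to -0.09, -0.01 and -0.02. The other scalings, the offset, the signal minimum, the intensity trend and the unmoderated model kept all 12 counts within 1.5 times. Median centring shifted the median change of all probe sets to -0.07, -0.06 and -0.06 in TF groups 1, 2 and 3, and the share called higher among called probe sets to 45.7%, 47.6% and 46.7%. The Aldoc call in TF group 1 was lost with quantile normalization (0.76, adjusted p = 0.0684) and fell under the fold limit with the offset (0.53). At an unadjusted p with the fold limit, 1 member probe set was lower for TF group 2 against TF group 1 (747 of all 22626 probe sets). For TF group 3 against TF group 1, 2 were lower (957 of all probe sets). Without the fold limit, 3 were lower in TF group 2 against the negative control (4083 of all) and 7 higher in TF group 3 (5049 of all). For TF group 2 against TF group 1, 1 was then higher and 2 lower (740 and 811 of all). For TF group 3, 2 were lower against TF group 2 and 5 against TF group 1 (876 and 1541 of all). With only the groups compared, 0 were lower for TF group 3 against TF group 2 (Pgam2, -2.55, adjusted p = 0.0695), where fewer arrays estimate the spread.

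For ratios of TF arrays to the negative control, the mean of a gene's probe sets gave 0.54 for Pfkm over Pfkl (exact permutation, adjusted p = 0.0273) and turned Pfkm over Pfkp to 0.18. The offset gave 0.40 for Pfkm over Pfkl and -0.48 for Aldoa over Aldoc (adjusted p = 0.0273 each). Hk2 over Hk1 in TF group 3 against TF groups 1 and 2 passed with the offset (0.42) and with quantile normalization (0.45, adjusted p = 0.0357 each). The cause was not tested. With signals below 32 set to 32, chosen after seeing the data, 12 of 12 ratio results kept their direction and their side of the threshold.

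Deviations of same-numbered arrays correlated between -0.071 and 0.119, and 2 of 18 pairs exceeded 0.1. For 6 of 12 arrays, the best correlated array among all arrays of the other groups carried the same number. That count was not tested against what unpaired numbers would give, so whether replicate numbers pair the arrays is not settled. With the replicate block the counts did not move (6 and 1, 5 and 1, and 3 and 0 against the negative control in TF groups 1, 2 and 3), and Pfkp over Pfkl (1.37), Pfkm over Pfkp (-1.33) and Pgam2 over Pgam1 (-2.76) had an adjusted p of 0.0741, where the smallest unadjusted p possible is 0.037.

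Leaving out each array in turn gave, against the negative control, 5 to 8 higher with 1 lower for TF group 1, 4 to 5 with 1 for TF group 2, and 3 to 4 with 0 for TF group 3, 0 higher with 0 to 1 lower for TF group 2 against TF group 1 (1 without TF group 1 replicate 2), and 3 higher with 0 to 1 lower for TF group 3 against TF group 2, and 3 with 1 against TF group 1. Ratios of TF arrays to the negative control ran between -0.41 and -0.30 (Hk2 over Hk1), 0.39 and 0.69 (Pfkm over Pfkl), 0.65 and 0.88 (Pfkp over Pfkl), -0.35 and -0.14 (Pfkm over Pfkp), -0.92 and -0.57 (Aldoa over Aldoc) and 0.89 and 1.78 (Pgam2 over Pgam1). For TF group 3 against TF groups 1 and 2 they ran between 0.37 and 0.52, -0.02 and 0.09 (below 0 without TF group 3 replicate 2), 1.29 and 1.43, -1.37 and -1.27, 0.13 and 0.59, and -3.33 and -2.43, in the same order. Without any TF group 3 array, the 3 ratios that passed had an adjusted p of 0.0714, since 2 arrays against 6 allow no p below 0.0357. Pgam2, Aldoc and the dimmer Pfkp and Hk1 probe sets were close to the low end of the signal, which limits their precision.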
